A study of Mus musculus with 12 samples.

Results

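A set of genes had their highest transcript level at the embryonic body stage of mouse cells differentiating towards cardiomyocytes and were lower both before and after it. They were chosen by their values: gene-level rows with 1 gene symbol whose mean log2 signal was at least 8 at day 7, at least 1.5 above the mean of day 0 and at least 1.5 above that of day 14, with both day 7 samples above all others. Of 23332 rows, of which 14996 carried 1 symbol, 147 met these values. The rule left out 21 of them by symbol (such as cadherins, keratins, claudins and semaphorins, and single genes such as Kdr and Postn) and 12 because they carried several symbols or none. This left 114 rows, or 113 genes, since Gprc5c is on the array with 2 rows. The rise to day 7 and the fall after it therefore describe how the genes were chosen and were not tested.

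Transcripts were measured on Affymetrix mouse exon arrays in 6 samples, 2 for each stage: undifferentiated ES cells (day 0), embryonic bodies (day 7), the aggregates in which ES cells form the germ layers, and cardiac bodies (day 14). A DMEM-based medium with 10% serum was used for differentiation, while the day 0 samples are labelled as undifferentiated. The labels name no other treatment, no cell line and no genotype. Whether the samples of a stage are separate cultures is not stated, and p-values therefore cover only the spread of these samples, possibly technical. TRIzol was used to extract the RNA, ribosomal RNA was removed, and 1 array per sample gave its profiles at gene and exon level.

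Early embryos, and the aggregates that imitate them, build transient tissues: blood islands of the yolk sac, a first vascular plexus, migrating mesenchyme and epithelia that are later remodelled. Embryonic globins, ETS transcription factors, Notch target genes, mesenchymal regulators such as Snai2 and Prrx1, and the proteoglycans of loose embryonic matrix are known from these tissues, and many of them are silenced as organs mature.

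The labels were checked against markers. Genes of the pluripotent state averaged a log2 signal of 10.5 and 10.6 over 22 measured genes at day 0, 7.78 and 7.61 at day 7, and 9.62 and 9.99 at day 14. Sarcomere genes, over 14 measured, stood at 5.19 and 5.14, then 5.58 and 5.64, then 10.7 and 10.2. The cardiac bodies thus carried contractile genes as labelled, together with a pluripotency signal above that of day 7. In bulk samples of this kind, fewer cells of a type and less RNA per cell cannot be told apart. The median signal of a sample lay between 6.47 and 6.79, and precision is limited by the number of arrays. A signal on this scale is compared between samples for 1 gene and never between genes.

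Promoters of RefSeq genes (mouse build GRCm38.p6, 250 bases before to 50 after the start of the gene) were found for 80 of the 113 genes. Those of 4 genes are shown because the results below turn on them: the embryonic globins Hbb-y and Hba-x, whose signal was far higher in replicate 1 of day 7, Emcn, which was far higher in replicate 2, and Gpc3, a gene still raised at day 14. Hbb-y lies on the minus strand at chr7:103853158-103853457, Hba-x on the plus strand at chr11:32276350-32276649, Emcn on the plus strand at chr3:137340828-137341127 and Gpc3 on the minus strand at chrX:52613925-52614224. Capitals mark, on either strand, GATAA and TATAAA in the globins, GGAAG (the core letters bound by ETS factors) in Emcn and CCCCGCCC (the letters bound by Sp factors) in Gpc3.
Hbb-y: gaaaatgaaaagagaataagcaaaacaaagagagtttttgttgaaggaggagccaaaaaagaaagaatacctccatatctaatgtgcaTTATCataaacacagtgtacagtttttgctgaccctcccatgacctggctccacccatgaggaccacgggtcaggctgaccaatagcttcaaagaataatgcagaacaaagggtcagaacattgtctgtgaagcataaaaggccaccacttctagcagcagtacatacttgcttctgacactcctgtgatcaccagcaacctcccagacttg
Hba-x: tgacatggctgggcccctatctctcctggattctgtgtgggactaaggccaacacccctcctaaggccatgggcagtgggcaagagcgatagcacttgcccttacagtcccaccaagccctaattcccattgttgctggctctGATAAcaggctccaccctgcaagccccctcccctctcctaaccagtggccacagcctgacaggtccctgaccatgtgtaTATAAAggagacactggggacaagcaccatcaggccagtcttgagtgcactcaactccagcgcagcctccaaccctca
Emcn: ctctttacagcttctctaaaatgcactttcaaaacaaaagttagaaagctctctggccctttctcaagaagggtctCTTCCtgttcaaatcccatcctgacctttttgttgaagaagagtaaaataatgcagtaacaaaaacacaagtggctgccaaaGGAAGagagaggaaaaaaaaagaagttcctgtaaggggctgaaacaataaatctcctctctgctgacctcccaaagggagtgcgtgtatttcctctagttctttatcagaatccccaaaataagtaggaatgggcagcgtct
Gpc3: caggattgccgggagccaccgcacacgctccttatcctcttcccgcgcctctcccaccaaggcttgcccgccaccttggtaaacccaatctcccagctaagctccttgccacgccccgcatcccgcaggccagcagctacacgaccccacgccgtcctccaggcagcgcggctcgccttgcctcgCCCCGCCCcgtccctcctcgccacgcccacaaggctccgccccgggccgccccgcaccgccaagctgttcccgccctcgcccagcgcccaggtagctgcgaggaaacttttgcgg

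GATAA, the core of the site of GATA factors, stood once in each globin promoter, on the reverse strand in Hbb-y and on the forward strand in Hba-x, which also held TATAAA, the TATA box, 28 bases before its start. Among the 80 promoters 27.5% held GATAA, against 20.5% of 11901 promoters of measured genes, and 10% held TATAAA, against 11.6%. GGAAG stood in 61.3% against 71.8%, CANNTG (the E-box) in 71.3% against 66.9%, CCCCGCCC in 36.3% against 27.7% and TGACTCA, the AP-1 site, in 1.25% against 4.32%. The CArG box of serum response factor was found in 1.25% as well, against 1.36%. These are matches of letters, all searched on both strands, and GATAA and TATAAA do not share letters in the sequences shown.

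**Figure D1:**
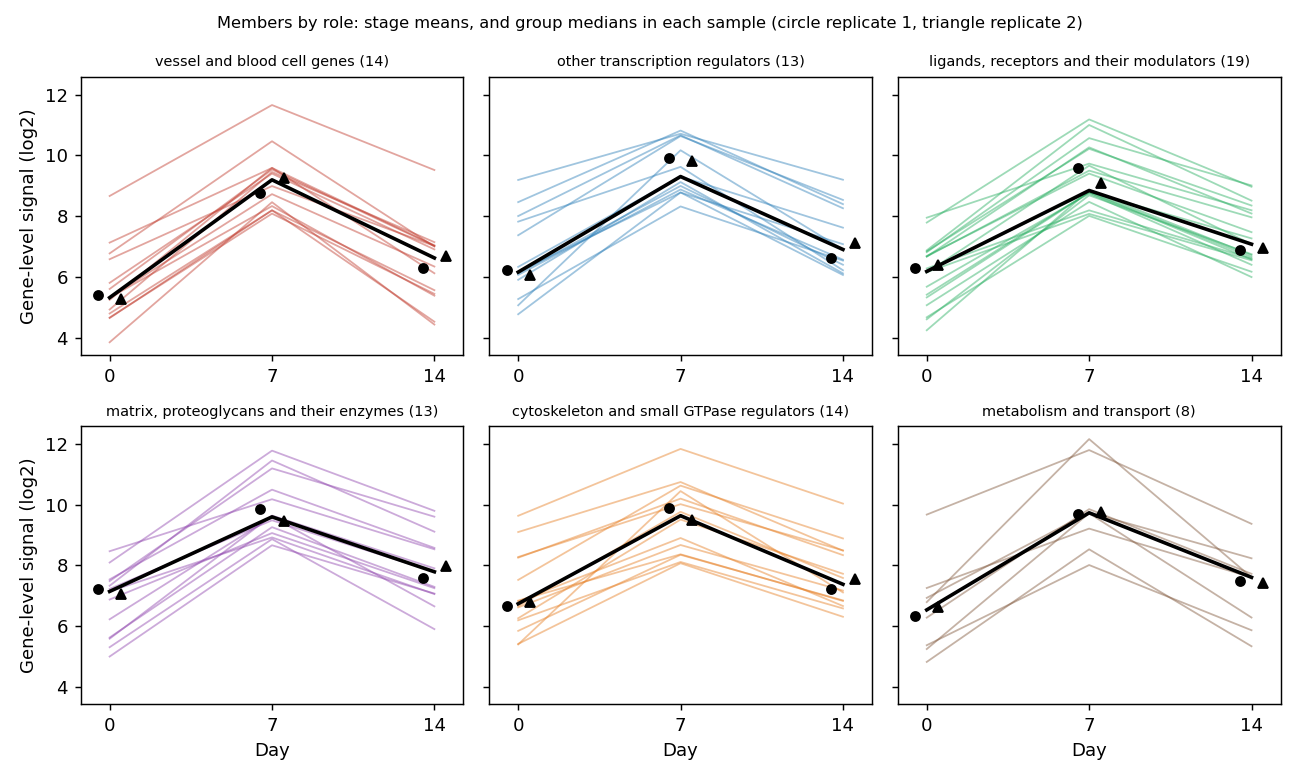
Gene-level log2 signal (vertical axis) against day (horizontal axis) for the genes of each role group. Thin lines are the means of 2 samples per stage for each gene, the thick black line is the median of the group, and circles and triangles are the group's median in replicates 1 and 2. In each group the median line is highest at day 7, as the choice of genes requires, and at day 14 it lies above day 0.

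Over the 114 rows the median of the stage means was 6.42 in ES cells, 9.28 in embryonic bodies and 7.05 in cardiac bodies. Day 7 exceeded day 0 by a median of 2.98 (range 1.52 to 5.37) and day 14 by 2.04 (1.501 to 4.55), on the log2 scale. In limma's test over all rows, 103 of the 114 were higher at day 7 than at day 0 (over all rows 5.35% were) and 64 were lower at day 14 than at day 7 (1.02%), counts that the choice of genes largely fixes. All 64 were among the 103. At the edge of the rule Clcn5, Patj, Arhgap29 and Ptpn13 were the last inside, with a smaller difference of 1.511, 1.503, 1.502 and 1.501, the lower of the rise and the fall. Hook3, Hs6st2, Tuft1 and Tgfb2 were the first outside at 1.497, 1.494, 1.491 and 1.476.

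Genes of vessels and blood made up a group of 14. Emcn encodes endomucin, a sialomucin of venous and capillary endothelium. Emcn read 4.03 and 3.66 at day 0, 6.87 and 10.05 at day 7, and 4.31 and 4.55 at day 14. Every day 7 value lay above the other stages, but the samples of day 7 were 3.18 apart. Fli1, an ETS factor of the endothelial and blood lineages, read 4.76 and 4.56 at day 0, 7.50 and 8.67 at day 7, and 5.55 and 5.33 at day 14. Ets1, its neighbour on chromosome 9 and also an ETS factor, read 5.30 and 5.34 at day 0, 8.56 and 8.89 at day 7, and 6.04 and 6.64 at day 14. Cd34, a sialomucin of blood progenitors and capillaries, read 6.83 and 7.43 at day 0, 8.90 and 10.28 at day 7, and 6.82 and 7.25 at day 14. In these 3 the day 7 samples stood apart from all others, and replicate 2 was the higher in each. Aplnr, the receptor of apelin, known from early mesoderm and vessels, read 5.51 and 5.12 at day 0, 8.62 and 8.04 at day 7, and 5.64 and 5.12 at day 14. Its values at day 14 overlapped those of day 0. Hey1, a target of Notch signalling in endothelium and heart, read 6.39 and 6.77 at day 0, 7.92 and 10.06 at day 7, and 7.31 and 6.73 at day 14. Hey2, its relative, read 5.62 and 5.98 at day 0, 8.69 and 10.11 at day 7, and 7.10 and 6.71 at day 14. Rhoj, a small GTPase of endothelial cells, read 5.27 and 5.21 at day 0, 8.83 and 10.35 at day 7, and 6.33 and 5.90 at day 14. Replicate 2 of day 7 was again the higher in all 3, while the samples of day 0 lay below those of day 14 in Hey2 and Rhoj.

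The globins went the other way. Hba-x, the embryonic zeta-like chain of haemoglobin, read 6.69 and 6.85 at day 0, 12.31 and 8.62 at day 7, and 7.07 and 6.92 at day 14. Hbb-y, an embryonic beta-like chain, read 4.78 and 4.50 at day 0, 10.48 and 5.90 at day 7, and 4.57 and 4.47 at day 14. Replicate 1 of day 7 carried the globin signal in both, by 3.70 and 4.58 over replicate 2, where they lay 1.55 and 1.12 above the next highest sample of another stage. Globin genes of the same family resemble each other, so that probes of either gene may take up RNA of its relatives and the values are uncertain. Rasgrp3, a Ras activator known from endothelium and B cells, read 4.998 and 4.85 at day 0, 9.46 and 9.44 at day 7, and 7.23 and 7.06 at day 14. Here the 2 samples of day 7 were alike and those of day 14 stood between the other stages. Lcp1, Podxl and Rgs5, known from leukocytes, podocytes and pericytes in turn, completed the group.

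Transcription regulators outside the vessel group numbered 13. Foxf1, a factor of splanchnic and extra-embryonic mesoderm, read 4.53 and 5.60 at day 0, 12.03 and 8.31 at day 7, and 6.61 and 7.19 at day 14. Prrx1, a factor of limb and craniofacial mesenchyme, read 4.89 and 4.65 at day 0, 7.75 and 9.80 at day 7, and 5.86 and 6.26 at day 14. Snai2, a driver of the epithelial to mesenchymal transition, read 7.10 and 7.64 at day 0, 11.21 and 10.07 at day 7, and 8.15 and 8.92 at day 14. The values at day 14 lay above those of day 0 in all 3, and the high sample of day 7 was replicate 1 in Foxf1 and Snai2 and replicate 2 in Prrx1. Isl1, a marker of second heart field progenitors, read 5.21 and 5.32 at day 0, 7.84 and 8.79 at day 7, and 6.29 and 6.78 at day 14. Foxa1, a pioneer factor of endoderm, read 6.24 and 6.41 at day 0, 10.32 and 8.28 at day 7, and 7.05 and 8.19 at day 14. Both stayed higher at day 14 than at day 0 in each sample, and replicate 2 of day 14 lay 0.0952 below the lower sample of day 7 in Foxa1. Pax9, a factor of pharyngeal endoderm and sclerotome, read 6.18 and 6.06 at day 0, 7.55 and 10.44 at day 7, and 6.43 and 6.36 at day 14. Greb1, first known as an oestrogen-responsive gene, read 5.98 and 5.82 at day 0, 9.90 and 8.34 at day 7, and 6.31 and 5.92 at day 14. Replicate 2 of day 7 was the higher in Pax9, by 2.89, and replicate 1 in Greb1, by 1.56. Sox11, Hmga2, Ikzf2, Eya1, Tcf4 and Bach2 had day 7 means of 8.78 to 10.8.

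Ligands, receptors and their modulators were the largest role group, 19. Kitl, the ligand of the receptor Kit on germ, blood and pigment cells, read 4.94 and 5.19 at day 0, 8.39 and 8.55 at day 7, and 5.90 and 6.09 at day 14. Wnt5a, a ligand of non-canonical Wnt signalling, read 5.23 and 5.60 at day 0, 9.60 and 7.98 at day 7, and 6.49 and 6.81 at day 14. Fzd2, a Wnt receptor, read 6.61 and 7.07 at day 0, 9.79 and 10.64 at day 7, and 8.61 and 8.08 at day 14. In each the stages did not overlap. Fzd3, a Wnt receptor of planar polarity and axon growth, read 5.93 and 6.38 at day 0, 7.53 and 8.62 at day 7, and 6.33 and 6.75 at day 14. Fgfr2, a receptor of fibroblast growth factors, read 5.81 and 6.55 at day 0, 9.09 and 8.52 at day 7, and 6.84 and 7.69 at day 14. Igfbp4, which binds insulin-like growth factors, read 6.28 and 6.01 at day 0, 9.92 and 9.40 at day 7, and 7.21 and 6.95 at day 14. Fzd3 overlapped between day 0 and day 14, while Fgfr2 and Igfbp4 did not.

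Guidance molecules were among them. Slit2, a secreted guidance cue, read 5.70 and 5.65 at day 0, 9.06 and 8.43 at day 7, and 5.86 and 6.93 at day 14. Robo2, a receptor of Slits, read 4.71 and 4.63 at day 0, 8.45 and 7.57 at day 7, and 6.01 and 6.32 at day 14. Unc5c, a receptor of netrins, read 5.55 and 5.10 at day 0, 9.73 and 7.83 at day 7, and 6.50 and 6.65 at day 14. Replicate 1 was the higher of the day 7 samples in all 3. Flrt3, a membrane protein that binds Unc5 receptors, read 6.51 and 6.81 at day 0, 10.80 and 9.73 at day 7, and 7.87 and 8.30 at day 14. Prtg, protogenin, an immunoglobulin-type receptor of early embryos, read 6.76 and 6.98 at day 0, 11.09 and 10.92 at day 7, and 8.09 and 8.93 at day 14. Lpar6, a receptor of lysophosphatidic acid, read 7.45 and 8.13 at day 0, 11.01 and 11.36 at day 7, and 8.67 and 9.26 at day 14. All 3 kept values at day 14 between the other stages.

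Matrix genes, proteoglycans and their enzymes numbered 13. Vcan, versican, a large proteoglycan of loose embryonic matrix and heart cushions, read 7.27 and 7.70 at day 0, 11.18 and 11.22 at day 7, and 9.42 and 9.79 at day 14. Mfap4, a protein of elastic microfibrils, read 7.29 and 7.37 at day 0, 11.23 and 11.69 at day 7, and 9.09 and 9.13 at day 14. Gpc3, glypican 3, a heparan sulfate proteoglycan of the cell surface, read 8.36 and 7.83 at day 0, 11.96 and 11.60 at day 7, and 9.84 and 9.76 at day 14. Samples of a stage lay within 0.53 of each other in all 3. Mmp2, a gelatinase, read 7.71 and 7.37 at day 0, 10.79 and 10.21 at day 7, and 8.20 and 8.95 at day 14. St3gal6, a sialyltransferase, read 4.93 and 5.07 at day 0, 8.73 and 8.60 at day 7, and 6.98 and 7.17 at day 14. Their day 14 values also lay between the stages. The group held 3 more enzymes of glycan chains, Hs3st3b1, Chst15 and St6gal1, the heparan sulfatase Sulf1, the protease Plat and the protease inhibitor Reck, besides Frem1 and Gpc6, with day 7 means from 8.87 to 10.2.

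The cytoskeleton and small GTPase group held 14 genes, whose day 7 samples differed by a median of 0.464, against 0.753 over all 114 rows. Tpm4, a non-muscle tropomyosin, read 9.70 and 9.58 at day 0, 11.75 and 11.93 at day 7, and 9.87 and 10.21 at day 14. Cald1, caldesmon, which binds actin and calmodulin, read 7.36 and 7.69 at day 0, 10.72 and 10.54 at day 7, and 8.40 and 9.38 at day 14. Amot, angiomotin, which binds the effectors of Hippo signalling, read 5.09 and 5.70 at day 0, 10.91 and 9.99 at day 7, and 6.68 and 7.55 at day 14. In Tpm4 the samples of a stage lay within 0.33 of each other, and in Cald1 and Amot those of day 14 were 0.99 and 0.87 apart. Metabolism and transport counted 8 genes. Hsd11b2, which inactivates glucocorticoids in placenta and kidney, read 6.32 and 7.26 at day 0, 12.57 and 11.76 at day 7, and 7.64 and 7.58 at day 14. Slc39a8, a zinc and manganese importer, read 5.17 and 5.32 at day 0, 10.39 and 9.05 at day 7, and 6.08 and 6.49 at day 14. Emb, embigin, a chaperone of monocarboxylate transporters, read 9.57 and 9.78 at day 0, 12.20 and 11.40 at day 7, and 8.95 and 9.79 at day 14. Hsd11b2 had the largest rise of the 114 rows, 5.37, and at day 14 stood 0.82 above day 0. Emb at day 14 overlapped day 0. Clic6, of the chloride channel family, read 4.89 and 4.75 at day 0, 9.58 and 7.48 at day 7, and 5.25 and 5.43 at day 14. Rdh10, which makes retinal, the precursor of retinoic acid, read 7.08 and 7.44 at day 0, 8.56 and 9.87 at day 7, and 7.34 and 7.88 at day 14. Rdh10 overlapped between day 0 and day 14.

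A further 33 rows had no role group. Pmp22, a protein of peripheral myelin also found in epithelia, read 8.02 and 8.25 at day 0, 13.11 and 11.55 at day 7, and 9.99 and 10.12 at day 14. Cnksr2, a scaffold of Ras signalling, read 5.58 and 6.01 at day 0, 9.78 and 9.38 at day 7, and 5.74 and 6.36 at day 14. Nuak1, a kinase of the AMPK family, read 8.37 and 9.02 at day 0, 11.22 and 12.04 at day 7, and 10.002 and 10.02 at day 14. Cnksr2 fell back to 0.26 above day 0, while Pmp22 and Nuak1 stood 1.92 and 1.31 above it. The rows of Gprc5c had day 7 means of 8.83 and 11.1, and both are counted. A630012P03Rik read 7.17 and 6.73 at day 0, 10.13 and 10.66 at day 7, and 6.86 and 6.43 at day 14. It and Gpc3 overlap by 38132 bases on opposite strands of chromosome X in the annotation, and whether the labelled cDNA kept strand is not stated, so that signal of the pair cannot be told apart by strand. At day 14 the samples of A630012P03Rik overlapped those of day 0, and those of Gpc3 did not.

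Neighbours on a chromosome were counted among measured genes. In 9 pairs at most 1 measured gene lay between members: Fli1 and Ets1, Pmp22 and Hs3st3b1, and Gpc3 and A630012P03Rik had none between them, and Pax9 and Foxa1, Isl1 and Emb, Slc39a8 and Emcn, Hba-x and Sh3pxd2b, Fmo1 and Prrx1, and Nrk and Pwwp3b had 1. How many such pairs another set of this size would hold was not counted. Chromosome X held 11 of the 113 genes, 2.32% of its 475 measured genes, against 0.761% of all measured genes on assigned chromosomes. Among the other chromosomes with members the share ran from 0.287% on chromosome 17 to 1.77% on chromosome 12.

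**Figure D2:**
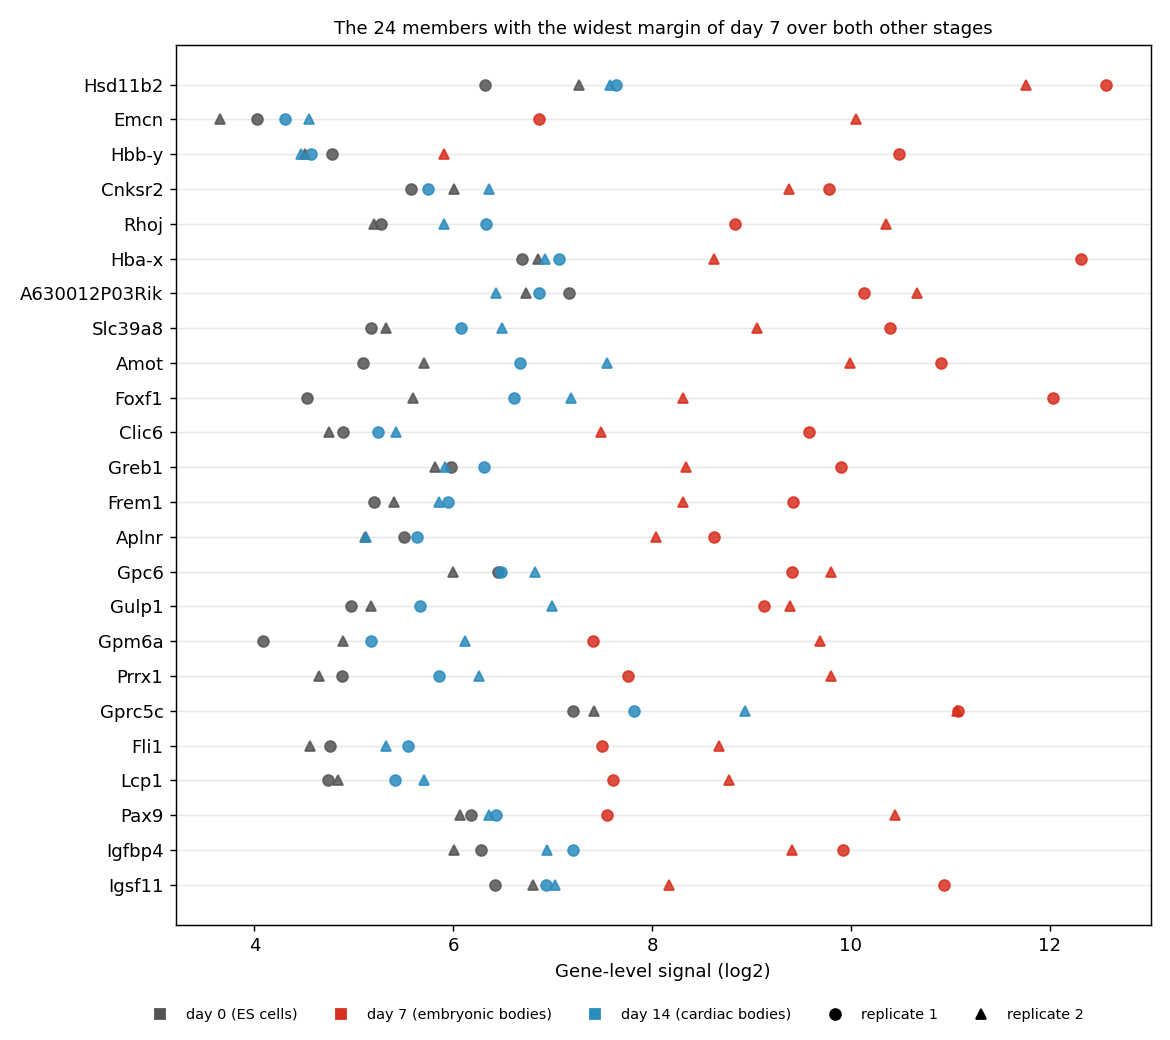
Gene-level log2 signal (horizontal axis) of the genes with the largest smaller difference, listed on the vertical axis, with 1 point for each of the 6 samples. Colour marks the stage and shape the replicate. The day 7 points lie to the right of all others, and they are far apart in Hbb-y, Foxf1, Hba-x, Emcn and Pax9 (5.90 and 10.48 in Hbb-y).

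The 2 samples of day 7 were unlike in many of these genes. The rule set a minimum on their mean, so that a row could enter through 1 very high sample, and the spread between them is given as a description. With replicate 1 or replicate 2 of day 7 left out of the rule, 87 and 83 of the 113 genes were chosen again. They differed by more than 1 in 39 of 114 rows (34.2%), against 5.60% of all rows, and by more than 2 in 14 (12.3%), against 0.686%. Their median absolute difference was 0.753, against 0.227 over all rows. Nothing is read from these shares, since the choice of genes favours such rows. In 22 rows (19.3%) they differed by 0.25 or less. The cut-offs were chosen after the values were seen. Of the 39, replicate 1 was the higher in 22 and replicate 2 in 17, so that neither sample was high throughout. Replicate 1 led by more than 2 in 8 rows, Hbb-y, Foxf1, Hba-x, Igsf11, Nrk, Stard8, Clic6 and Foxa1, and replicate 2 in 6, Emcn, Pax9, Gpm6a, Hey1, Eya1 and Prrx1. Igsf11, a cell adhesion molecule of the immunoglobulin family, read 6.42 and 6.81 at day 0, 10.94 and 8.17 at day 7, and 6.93 and 7.03 at day 14. By group, the day 7 samples differed by more than 1 in 10 of 14 vessel and blood genes and 8 of 13 transcription regulators. The counts were 4 of 8 for metabolism and transport, 5 of 19 for ligands and receptors, and 2 of 13 for matrix genes. They were 1 of 14 for cytoskeleton genes and 9 of 33 for rows without a role group. Nothing is read from these counts either, since the rule used the day 7 values.

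**Figure D3:**
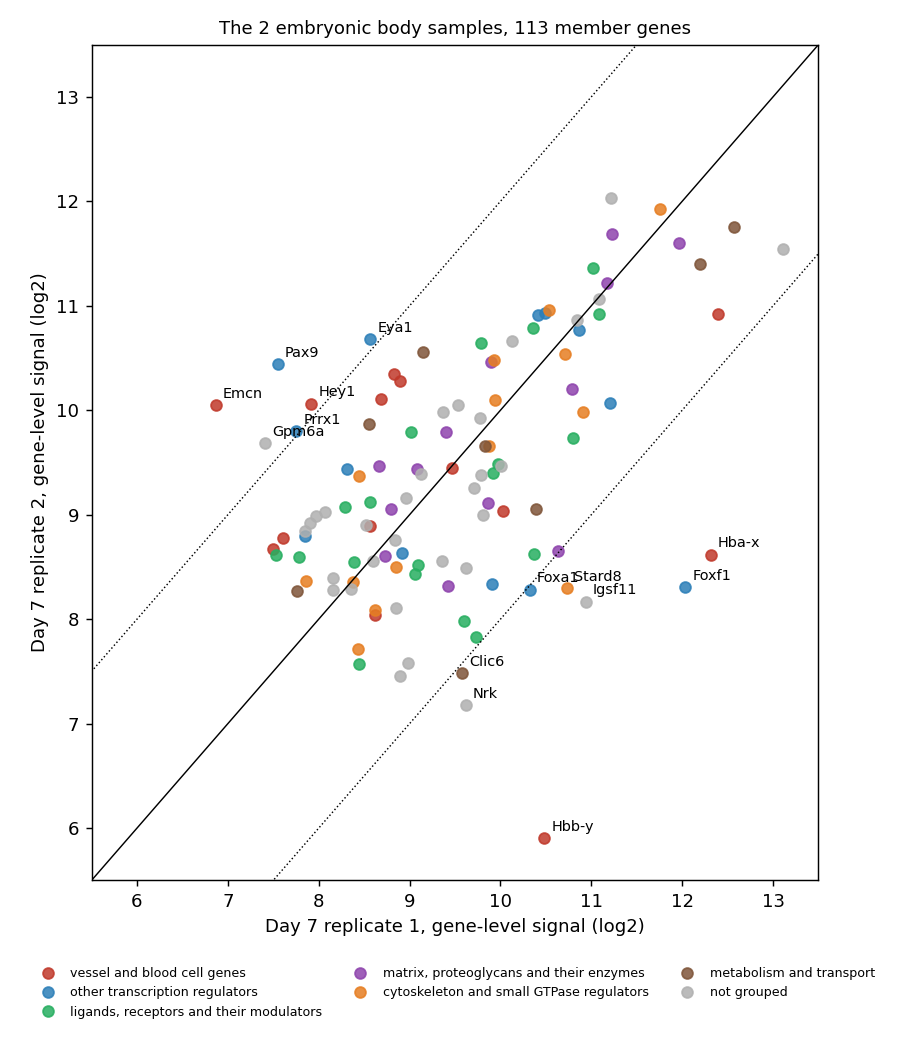
Gene-level log2 signal in replicate 1 (horizontal axis) against replicate 2 (vertical axis) of day 7, 1 point per gene, coloured by role group. The solid line marks equality and the dotted lines a difference of 2. Hbb-y, Hba-x and Foxf1 lie far on the side of replicate 1 and Emcn and Pax9 on that of replicate 2.

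Marker lists of other cell types differed between the same 2 samples. Of 28 endothelial genes outside the set, 21 were higher in replicate 2 than in replicate 1 of day 7, the median difference of replicate 1 minus replicate 2 being -0.78. Their mean signal was 6.19 and 6.27 at day 0, 7.00 and 7.56 at day 7, and 6.19 and 6.22 at day 14. Of 13 blood genes outside it, 11 were higher in replicate 1 (median 0.674), with a mean of 7.09 against 6.04 at day 7, 5.70 and 5.55 at day 0, and 5.85 and 5.77 at day 14. Gata1, the master regulator of red cells, read 7.84 and 5.72 at day 7, and Klf1, the switch factor of adult globin, 7.60 and 4.85. At day 0 these stood at 6.22 and 5.95, and at 5.44 and 5.72. Of 19 endoderm and yolk sac genes 18 were higher in replicate 1 (median 0.982), and Ttr, a carrier made by yolk sac endoderm, read 11.98 and 7.64. In the mesenchyme list 15 of 31 were higher in replicate 1. Some other lists leaned in their counts, with medians nearer 0. Replicate 1 was the higher in 11 of 13 imprinted (median 0.143), 8 of 10 trophoblast (0.318) and 18 of 26 cardiac progenitor and cushion genes (0.364). Replicate 2 was the higher in 13 of 20 cell cycle genes, at a median of only -0.032. Lists without a lean were pluripotency, with 11 genes higher in each replicate, and Notch signalling, with 8 in each. The share of a lean over all rows was not counted, so that none is called particular to a cell type. The part of these cell types in the values of the 114 rows was not tested.

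Whether the genes had returned to their starting level is a comparison the rule did not set directly, since it sets day 14 against day 0, although the values of both stages entered the rule. In limma's test over all 23332 rows (n = 2 per stage, all 6 samples in 1 fit), 10 of the 114 rows (8.77%) were higher at day 14 than at day 0, against 2.63% of all rows, and 0 were lower, against 0.686%. At an unadjusted p under 0.05, 47 were higher and 1 was lower, in all 42.1% against 17.4% of all rows. Among the 7048 rows with a day 7 mean of at least 8, which the rule requires, the share was 23.4%. Both samples of day 14 lay above both of day 0 in 86 rows (75.4%), against 21.9% of all rows, and below both in 2 (1.75%), against 24.1%. The mean of day 14 lay above that of day 0 in 102 rows (89.5%, against 46.8%), and the median difference was 0.77, against -0.03 over all rows.

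The 10 rose as follows, as log2 differences ± standard error. Gria3, a subunit of AMPA-type glutamate receptors, read 4.19 and 4.29 at day 0, 8.57 and 9.12 at day 7, and 6.67 and 6.75 at day 14. Its difference was 2.47 ± 0.23 (limma adjusted p = 0.00711). Rasgrp3 rose by 2.22 ± 0.17 (limma adjusted p = 0.00497). Ccn1, a matricellular protein, read 6.37 and 7.25 at day 0, 10.35 and 10.78 at day 7, and 8.67 and 9.35 at day 14. Its difference was 2.20 ± 0.39 (limma adjusted p = 0.0491), close to the threshold. Tspan12, a tetraspanin that assists the Norrin receptor complex, read 4.66 and 4.54 at day 0, 8.29 and 9.08 at day 7, and 6.87 and 6.62 at day 14. It was 2.14 ± 0.29 higher (limma adjusted p = 0.0236).

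The matrix genes Vcan, St3gal6, Mfap4 and Gpc3 rose by 2.12 ± 0.23, 2.08 ± 0.18, 1.78 ± 0.21 and 1.70 ± 0.25, with limma adjusted p = 0.0116, 0.00621, 0.0145 and 0.0289. Vopp1, a vesicular protein linked to NF-kappa-B in human cells, read 4.75 and 4.62 at day 0, 8.16 and 8.28 at day 7, and 6.35 and 6.55 at day 14. It rose by 1.77 ± 0.18 (limma adjusted p = 0.00908). B930095G15Rik read 6.86 and 6.75 at day 0, 9.53 and 10.05 at day 7, and 8.12 and 8.13 at day 14. It rose by 1.32 ± 0.23 (limma adjusted p = 0.0451). In all 10, as in 86 of the 114 rows, both samples of day 14 exceeded both of day 0, which the call itself largely requires. With a sample of day 0 or day 14 left out that stage has 1 sample, which is assumed to vary like the other stages. Of the 10, Rasgrp3 alone was still called with either sample of day 0 left out, and Rasgrp3 and St3gal6 with either of day 14 left out. The differences themselves ranged from 2.43 to 2.52 in Gria3, and in Ccn1, which moved furthest of the 10, from 1.76 to 2.64. Those of Gpc3 and B930095G15Rik were also lost when samples were centred on their medians, that of B930095G15Rik with quantile normalization and with the replicate number as a block, and those of Gpc3 and Ccn1 with 1 or both samples of day 7 left out.

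By role, the median difference between day 14 and day 0 was 1.24 for ligands and receptors (3 of 19 called) and 1.04 for matrix genes (4 of 13), then 0.77 for vessel and blood genes (1 of 14), 0.67 for metabolism and transport (0 of 8), 0.50 for transcription regulators (0 of 13) and 0.48 for cytoskeleton genes (0 of 14). At an unadjusted p under 0.05 these groups held, in the same order, 12, 7, 3, 2, 3 and 5. The 3 vessel and blood genes were 21.4% of theirs, between the 17.4% of all rows and the 23.4% of rows with a day 7 mean of at least 8. Over the rows without a role group it was 0.68 (2 of 33 called). All 19 ligand and receptor genes had a higher mean at day 14 than at day 0. The 12 rows with a lower mean included Eya1, a transcriptional cofactor and phosphatase with the lowest difference, at -1.60 ± 0.69 (limma adjusted p = 0.318), Dbn1, drebrin, at -0.61 ± 0.21 and Emb at -0.30 ± 0.38, of which Eya1 and Dbn1 were singled out after their values were seen. Others lay near 0: Hba-x at 0.22 ± 1.11, Hbb-y at -0.12 ± 1.38, Cd34 at -0.09 ± 0.49 and Aplnr at 0.07 ± 0.30. A p above the threshold does not show that these had returned to day 0. The standard errors come from all 6 samples and take in the spread at day 7, in the globins as in every other row. In the order of roles above, the day 7 samples differed by a median of 0.778, 0.456, 1.40, 1.06, 1.14 and 0.464. Counts of calls are therefore not compared between roles.

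**Figure D4:**
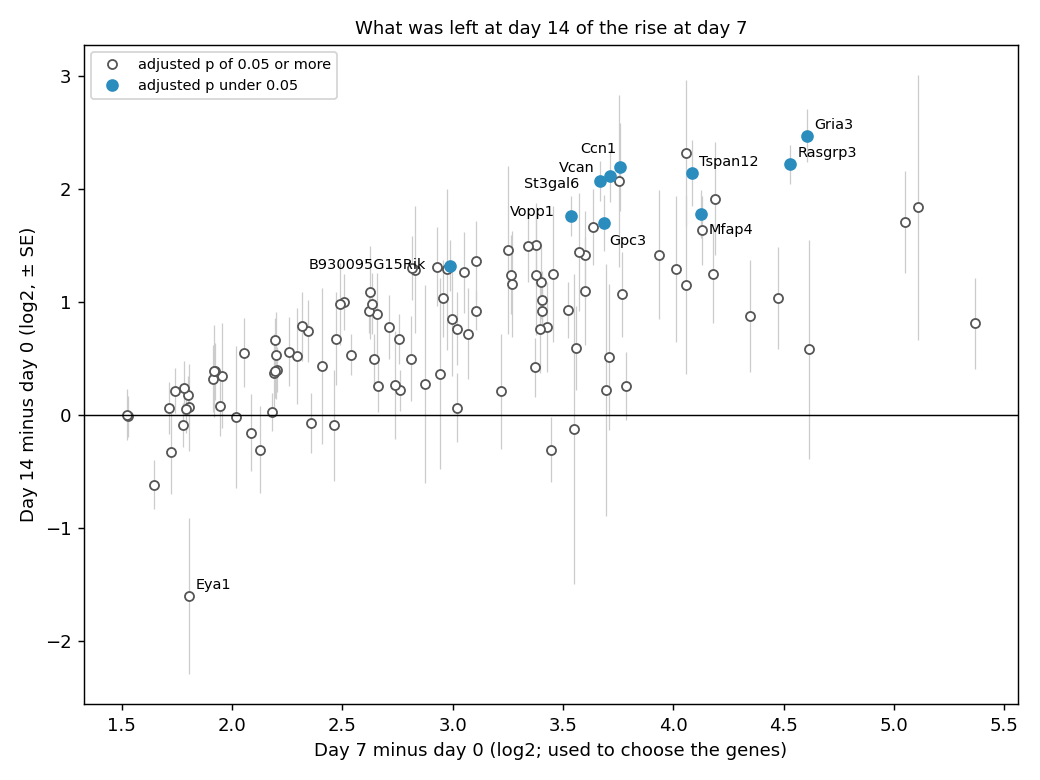
Difference between day 14 and day 0 (vertical axis, log2, bars are ± 1 standard error of the limma fit) against the difference between day 7 and day 0 (horizontal axis, log2, used to choose the genes), 1 point per gene. Filled points are the 10 called at an adjusted p under 0.05. The named points lie at 1.32 or above, apart from Eya1 at -1.60.

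Other genes of the same pathways and tissues were taken from lists, with the members taken out; the lists were chosen with earlier results of these data known. Over all rows 5.35% were called higher and 5.28% lower at day 7 than at day 0, and 12.4% and 13.3% at an unadjusted p under 0.05. Of the 28 other endothelial genes, 10 were higher at day 7 than at day 0 and 1 was lower, and 5 were lower at day 14 than at day 7. Erg, an ETS factor, rose by 2.10 ± 0.46 (limma adjusted p = 0.0451), and Ramp2, the partner of the adrenomedullin receptor, by 2.47 ± 0.52 (0.0403 as the adjusted p). Lyve1, a hyaluronan receptor, rose by 2.35 ± 0.51. Pecam1, the adhesion molecule of endothelial junctions, fell by 1.59. Of the 10, Cdh5, Kdr, Flt1 and Tek met the values of the rule and were left out by symbol. Cdh5, Kdr and Flt1 were also 3 of the 5 that fell. The others that fell, Tie1 and Gimap4, had day 7 means of 7.44 and 7.74, below the minimum, and are also among the genes that the rule excludes by name. Between day 14 and day 0 limma called 0 of the 28, and at an unadjusted p under 0.05 3 were higher and 1 was lower.

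Of the 13 other blood genes 3 rose and 1 fell at day 7. Among them Cd44, a hyaluronan receptor, rose by 3.04 ± 0.23 (limma adjusted p = 0.00316) and fell by 2.00 ± 0.23 by day 14, and Runx1, needed for the first blood stem cells, rose by 1.85 ± 0.25. Of the 31 other mesenchyme genes 10 rose and 0 fell at day 7 (19 and 1 at an unadjusted p under 0.05), 2 fell by day 14, and 5 were still higher than at day 0. Of the 10, Postn and Pdgfrb met the values of the rule and were left out by symbol, and Pdgfrb was 1 of the 2 that fell. Zeb2, a repressor of epithelial genes, rose by 2.94 ± 0.18, fell by 1.04 ± 0.18 and stayed 1.90 above day 0. Of 11 hedgehog genes beside Foxf1, 6 rose and 0 fell in limma's test (9 and 1 at an unadjusted p under 0.05), and 2 of them fell again: the ligand Shh, by 1.91 ± 0.31 up and 1.83 ± 0.31 down, and the signal transducer Smo, by 1.23 ± 0.20 up and 1.20 ± 0.20 down.

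Further lists were counted in the same way. Of 38 genes of TGF-beta and BMP signalling 14 rose and 0 fell at day 7 in limma's test (21 and 1 at an unadjusted p under 0.05), and 2 fell by day 14. Bmp5, 1 of the 14, met the values of the rule and was left out by symbol. Of 37 Wnt genes beside Wnt5a, Fzd2 and Fzd3, 5 rose and 2 fell, the latter near the share of all rows, with Fzd4, the Norrin receptor, at 2.89 ± 0.30. Frzb, 1 of the 5, was likewise left out of the set by symbol. In the axon guidance list, beside Slit2, Robo2, Unc5c and Flrt3, 3 of 12 rose and 1 fell, with Unc5b at 2.62 ± 0.42. Of 14 macrophage genes 3 fell and 0 rose in limma's test (4 and 0 at an unadjusted p under 0.05). The list's mean signal was 5.90 and 5.90 at day 0 and 5.27 and 5.17 at day 7. The 3 were Laptm5, Cd68 and Coro1a, whose means went from 11.6 to 7.35, 9.62 to 7.80 and 6.82 to 5.46. Csf1r, Adgre1 and C1qa, which were not called, had means of 5.01, 3.33 and 4.87 at day 0 and 4.87, 3.50 and 4.82 at day 7. Nothing about macrophages is read from the list's mean. No member came from the macrophage, sarcomere, pluripotency, cell cycle, neural, trophoblast or primitive streak lists. None came from the imprinted, simple epithelium or TGF-beta and BMP lists either, but there the rule left out genes by symbol. Peg3 of the imprinted list met its values, as did Krt18, Krt19, Cldn6 and Cldn7 of the epithelium list and Bmp5.

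The exon-level profiles measure the same RNA on the same arrays with each probe set apart. Of 1655 probe sets in the 113 genes, 1530 (92.4%) were highest in both day 7 samples, against 12.9% of all 229581, a count that repeats how the genes were chosen. In 112 of the 113 genes more than 50% of the probe sets were, and Foxa1 was the exception, with 5 of 12. Exon usage, which sets each probe set against its gene's median in that sample (as a log2 difference), was tested with limma in genes with at least 4 probe sets and a median above the 50th percentile in both stages, which 23, 44 and 22 member genes reached for day 7 against day 0, day 14 against day 7 and day 14 against day 0. With a threshold of 0.05 on the adjusted p and of 1 on the difference, limma called 0 probe sets in each comparison, both in these genes and among all 95195, 100538 and 98800 tested. At an unadjusted p under 0.05 there were 61 of 310 member probe sets (19.7%, against 8% of all), 82 of 556 (14.7%, against 4.61%) and 23 of 280 (8.21%, against 5.51%). The first 2 of these comparisons are the contrasts used to choose the genes. With the median set against the 25th percentile instead, 9 member probe sets in 5 genes were called at day 7 against day 0 (0.091% of 144998 over all genes). Probe sets without spread were dropped, a treatment chosen after counts of calls had been seen.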

How the data were processed

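The 6 arrays gave 12 profiles. Per the submitters' processing notes the deposited log2 values were made by the authors with RMA in Affymetrix Power Tools, with versions not given in the sources used here, and per the labels the core probe sets are those of mm9. Symbols were updated through a GRCm38.p6 gene table. The members and lists were chosen with earlier results of these data known, and role groups, promoters and cut-offs between replicates after the values were seen. Gene levels were fitted with limma 3.58.1 in R 4.3.3, all 6 samples together, with Benjamini-Hochberg adjustment over all rows. Genes are named by rule: the 12 with the largest smaller difference, the 12 with the highest day 7 mean, members on lists, those called at day 14 against day 0, 4 at either edge and 6 whose day 7 samples differ most. Genes named from lists that are no members, and members named for a difference over 2 between the day 7 samples, were picked after their values were seen. For a gene with several rows in a list the row with the highest mean was used. The tests were run on simulated data in which some rows were raised at day 14 by log2 differences of 1, 2 or 4. At gene level, day 14 against day 0, 1.49%, 59.7% and 87.9% of these were recovered, with 7 false calls in 23332 rows. For exon usage 0%, 25.4% and 66.7% were, with 1 false call in 98800 rows. Most differences of 1 were thus missed. In the exon usage fit, probe sets without spread (equal to the median of their gene in all samples) were dropped. The design did not foresee this, and it was decided after counts of calls under several treatments had been seen. Every treatment is reported under how the results depend on the processing.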

Additional observations from a re-analysis of the deposited data

How the results depend on the processing

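The number of rows that met the rule was 262 with differences of at least 1, 57 with at least 2 and 180 without a minimum at day 7. It ranged from 95 to 152 without 1 sample, and 83 to 113 of the 113 genes were shared. At day 14 against day 0, without 1 sample, members called higher ranged from 1 to 13, all rows higher from 138 to 475 and all rows lower from 11 to 70. With the mean of exon-level probe sets the counts were 21 members, 1017 rows higher and 376 lower. Rows lower were 276 with centred samples, 248 with the filter on low values and 70 with only days 0 and 14. Centring moved the median difference of all rows from -0.0272 to -0.158. With the replicate number as a block (replicate block) 10 members were called, 9 of them as without it. Deviations of same-numbered samples correlated across rows at 0.0826 for day 0 and day 7 and 0.0913 for day 7 and day 14. For day 0 and day 14, the contrast of the 10 calls, the correlation was 0.486. The labels state no pairing and the main fit used none. Whether the samples of day 0 and day 14 are paired by number cannot be told from these values. For the 10 called genes, 86 of 130 alternative values kept their call, 44 lost it and 0 reversed. The causes were not tested.

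Exon usage at day 7 against day 0 called 9 probe sets in 5 member genes with the gene filter at the 25th percentile (132 of 144998 over all genes), and 0 in members under the other alternatives planned. The treatment of probe sets without spread was chosen after the data were seen, and 7 other settings were run. Keeping them gave 0 calls over all genes at day 7 against day 0, with or without robust estimation, as did dropping those at the median in every sample. A residual SD over 0.01 gave 2, dropping those at the median in any sample 2, and an SD over 0.05 gave 10, with 0 in members under each; the last also gave 2 at day 14 against day 7 and 8 at day 14 against day 0, again with 0 in members. The 25th percentile filter together with an SD over 0.01 gave 193, of which 11 in 7 member genes, and 136 at day 14 against day 0 with 0 in members (112 with the 25th percentile filter alone). The statement that no probe set was called therefore rests on these settings. With 2 samples per stage, large differences in level or usage can be missed as well as small ones, so that 0 calls of exon usage say little about its absence.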
